A study of Homo sapiens with 12 samples.

Results

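The respiratory chain and the ATP synthase are built from subunits of 2 genomes, and 101 genes of the 58884 rows of the count table belong to this set. They were chosen by symbol: the protein-coding NDUFA, NDUFB, NDUFC, NDUFS and NDUFV genes, SDHA to SDHD, the UQCR genes with CYC1, the COX4 to COX8 families, the ATP5 genes, and the mitochondrially encoded MT-ND, MT-CYB, MT-CO and MT-ATP genes. Assembly factors and pseudogenes were left out. There were 88 nuclear and 13 mitochondrial genes. In the fit of each cell line, 80 of the 88 nuclear genes and all 13 mitochondrial genes had counts high enough to be tested.

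Complexes I, III and IV pass electrons from NADH to oxygen and pump protons out of the mitochondrial matrix, complex II feeds in electrons from succinate without pumping, and complex V, the ATP synthase, uses the returning protons to make ATP. Most subunits are encoded in the nucleus, translated in the cytosol and imported. A small hydrophobic core is encoded by mitochondrial DNA, which is transcribed from both strands into long RNAs that are then cut into single messages. All mitochondrial subunit messages except MT-ND6 come from the heavy-strand RNA, and MT-ND6, a membrane subunit of complex I, comes from the light-strand RNA, so it is given apart throughout.

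The 12 RNA-seq libraries came from U2932 and TMD8, established lines of diffuse large B-cell lymphoma labelled wild type. Each line was split and kept as 2 separate cultures for a week, and each culture was treated for 4 h with 20 µg/mL of rituximab (R), ofatumumab (OF) or a human IgG1 isotype control. R and OF are antibodies against CD20, a surface protein of B cells, and bind different parts of it. Each of the 6 conditions thus had 2 libraries, and both libraries of a line came from 1 parental line, so p-values measure the spread between cultures and not between patients. Log2 fold changes ± SE and adjusted p-values are from the edgeR quasi-likelihood test over all genes tested, and a gene was called at an adjusted p under 0.10.

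The libraries held 15440226 to 27110612 counts. The 6 B cell markers were all expressed, with a summed level of 1874 to 3645 CPM, the read count scaled to a common library size, while all 5 T or NK cell markers and all 5 myeloid markers stayed under 1 CPM in every library, with sums of 0 to 0.627 and 0.477 to 1.42 CPM. Of the 4 epithelial or stromal markers, 2 stayed under 1 CPM everywhere, and the sum ranged from 1.30 to 38.0 CPM. TMD8 OF replicate 2 and TMD8 isotype replicate 2 stood apart from the other TMD8 libraries: cytosolic ribosomal protein genes made up 7.71% and 6.98% of them, while the remaining 4 had 10.8% to 11.7%. Fits without these 2 libraries are given beside the main results that rest on them. The same 2 libraries had the lowest shares of counts on the nuclear members in TMD8, 0.791% and 0.809%. The remaining 4 had 0.973% to 1.10%. The choice of these libraries is thus not independent of the nuclear levels. Calls and medians of nuclear members in fits without them, within TMD8 and between the lines, follow in part from that choice.

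The counting of 18 members, 17 nuclear and MT-ATP6, was uncertain. For 16 members at least 35% of the coding bases are shared, on the same strand, with another annotated gene, and such reads may not have been assigned to either gene. Whether counting used the strand is not given. On either strand, NDUFS7 (48.45%), NDUFB2 (45.24%) and ATP5ME (43.96%) also pass this limit, and they are not among the 18. The counts of SDHA, the flavoprotein of complex II, were 927 over all 12 libraries, against 29420 on its annotated pseudogenes. MT-ATP6 had 563676 counts and its nuclear copy MTATP6P1, at chr1:633696-634376 in GRCh38 with 671 of 681 bases identical, had 58102. Counts of these members may be too low, and they are named as uncertain where a result turns on them.

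Sequences are shown for members that had some of the smallest p or largest differences, to show what lies upstream of them. The first 5 are the 180 bases upstream of the annotated start of a nuclear member, from RefSeq on GRCh38.p14, all on the plus strand. Capitals mark matches, on either strand, to letters that the factors NRF1 (GCATGCGC), ETS family members such as GABPA (CCGGAAG), YY1 (AAGATGGCG) and SP1 (GGGCGG) can bind. COX4I1, UQCRH and ATP5IF1 are among the members with the smallest p under R in U2932, and SDHD and ATP5MG are among those with the largest difference between the lines. The last sequence is the stretch in which the reading frames of MT-ATP8 and MT-ATP6 overlap, so that reads from it belong to both genes, and it has no capitals.
COX4I1, chr16:85799515-85799694: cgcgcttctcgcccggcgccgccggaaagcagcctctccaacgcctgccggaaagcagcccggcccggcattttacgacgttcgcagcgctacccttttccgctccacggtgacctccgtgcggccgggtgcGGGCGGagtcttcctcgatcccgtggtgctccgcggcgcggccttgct
ATP5IF1, chr1:28235944-28236123: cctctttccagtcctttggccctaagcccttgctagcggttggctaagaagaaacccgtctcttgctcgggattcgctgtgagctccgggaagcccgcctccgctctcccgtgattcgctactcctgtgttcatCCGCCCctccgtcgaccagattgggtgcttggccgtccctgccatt
UQCRH, chr1:46303518-46303697: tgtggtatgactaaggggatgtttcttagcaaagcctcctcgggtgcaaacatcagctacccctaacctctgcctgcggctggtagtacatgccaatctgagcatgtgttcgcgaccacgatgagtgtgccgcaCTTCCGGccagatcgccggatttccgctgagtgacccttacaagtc
SDHD, chr11:112086693-112086872: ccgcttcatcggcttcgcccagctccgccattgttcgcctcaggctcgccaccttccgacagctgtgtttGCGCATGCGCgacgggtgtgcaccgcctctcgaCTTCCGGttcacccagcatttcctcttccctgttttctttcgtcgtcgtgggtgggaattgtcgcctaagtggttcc
ATP5MG, chr11:118401426-118401605: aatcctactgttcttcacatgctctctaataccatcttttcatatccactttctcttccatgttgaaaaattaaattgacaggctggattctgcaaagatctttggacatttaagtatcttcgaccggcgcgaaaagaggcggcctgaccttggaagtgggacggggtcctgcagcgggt
MT-ATP8 with MT-ATP6, chrM:8527-8572: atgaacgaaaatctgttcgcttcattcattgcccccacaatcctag

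COX4I1 and ATP5IF1 each held 1 SP1 match, UQCRH held 1 ETS match, and SDHD held 1 ETS match and 2 overlapping NRF1 matches, while none of the 4 strings was found in the 180 bases of ATP5MG. RefSeq windows from 250 bases before to 50 after the start were matched for 70 of the 88 nuclear members, in 83 windows. The NRF1 letters were in 18.1% of these windows and in 3.05% of all 35116 promoter windows of the same length. The ETS letters were in 26.5% against 10.3%, the YY1 letters in 12.05% against 1.75%, and the SP1 letters in 61.45% against 44.95%. All members are protein-coding, and of the 22198 windows of protein-coding genes 3.74% held the NRF1 letters, 12.8% the ETS letters, 2.41% the YY1 letters and 56.3% the SP1 letters, so that the SP1 share of the members was close to that of such genes. Median GC content was 59.3% in the member windows and 58.7% in all windows, so base composition was close. Windows were counted and not genes, and 9 members had more than 1 window. Of the 60 windows of members that rose under R in U2932, 13 (21.7%) held the NRF1 letters. Of the 19 windows of tested members that did not rise, 2 (10.5%) did. The YY1 letters went the other way, with 5 windows in each set (8.33% against 26.3%). The ETS letters were in 28.3% against 26.3%, and the SP1 letters in 60% against 73.7%. These matches are descriptions of the sequence and were not tested against expression.

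Under the isotype control, the mitochondrial messages were far more abundant per base of transcript than the nuclear ones. The median nuclear member was at 94.5 TPM (counts per length of the merged exons, scaled to a common total) in U2932 and 84.2 TPM in TMD8, and the median mitochondrial member was at 10880 and 7237 TPM. Within the nuclear set, ATP5F1B, the catalytic beta subunit of the ATP synthase, had the highest level, with a group mean of 1568 TPM in U2932 and 2192 TPM in TMD8. MT-CO1, the catalytic subunit of complex IV, had the highest level of the mitochondrial set, with 31966 TPM in U2932 and 23799 TPM in TMD8. MT-ND6 was the lowest mitochondrial member in U2932, at 940 TPM, and MT-ND4L, a small membrane subunit of complex I, was the lowest in TMD8, at 1512 TPM. These levels depend on the length used: with coding length instead, the median nuclear member of U2932 was at 158.7 TPM and the median mitochondrial member at 3445 TPM.

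The 8 members that were not tested had at most 9 counts in a library. They were the complex IV isoforms COX4I2, COX6A2, COX6B2, COX7A1, COX7B2 and COX8C, which are known from lung, heart and skeletal muscle or testis, and the ATP5MGL and ATP5MF-PTCD1 genes of complex V. COX4I1, the widely expressed partner of COX4I2, had 201.5 ± 34.5 TPM in TMD8 under isotype (SD, n = 2), against 0.13 ± 0.18 TPM of COX4I2. COX6B1 had 842.0 ± 234.3 TPM against 0.02 ± 0.03 TPM of COX6B2. COX7A2 was at 188.4 ± 57.3 TPM, and COX7A1 had no count in either of these libraries. In each of these pairs the widely expressed gene was the one with counts in these B cells. The same held for COX7B, with 74.2 ± 21.9 TPM, against COX7B2, and for COX6A1 and COX8A, whose counting is uncertain, against COX6A2 and COX8C.

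As a share of all counts, the 13 mitochondrial messages were higher under R and OF than under isotype in U2932. They took 4.71% and 4.88% of counts in the isotype libraries, 5.09% and 5.80% under R and 5.56% and 5.26% under OF. All 4 antibody libraries lay above both isotype libraries. The 88 nuclear members together took 0.912% and 0.886% under isotype, 1.04% and 1.07% under R and 0.999% and 0.992% under OF, again with no overlap. In TMD8 the mitochondrial messages took 3.52% and 2.65% under isotype, 4.39% and 4.05% under R and 4.30% and 2.65% under OF. The second OF library of TMD8 overlapped the isotype libraries, and the R libraries lay above them. The nuclear members took 0.791% to 1.10% in TMD8, with the R libraries between the 2 isotype libraries. In bulk RNA, a higher share can come from more RNA of these genes per cell or from less of other RNA, and these cannot be told apart here.

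**Figure D1:**
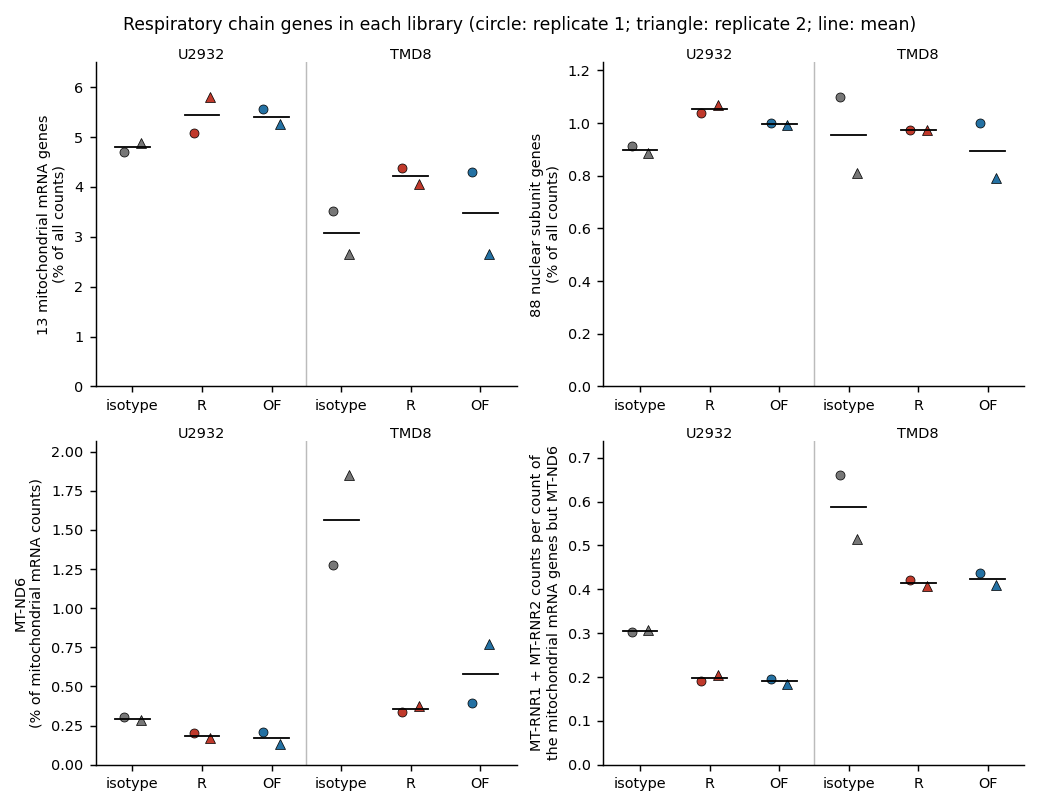
Respiratory chain genes in each of the 12 libraries (circle, replicate 1; triangle, replicate 2; line, mean): the share of all counts on the 13 mitochondrial messages (top left, percent) and on the 88 nuclear subunit genes (top right, percent), MT-ND6 as a percent of mitochondrial message counts (bottom left), and mitochondrial rRNA counts per count of the other mitochondrial messages (bottom right). In U2932 the antibody libraries lie above isotype in both upper panels and below it in both lower panels; in TMD8 MT-ND6 fell from 1.28% and 1.85% under isotype to between 0.335% and 0.773%.

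R raised most of the nuclear subunit genes of U2932 by a small amount. Of the 80 nuclear members tested, 60 rose, 2 fell and 18 were not called, and their median log2 change was 0.43, or 1.34-fold, against −0.02 over all genes tested. Over all 14635 genes, 16.8% were called higher and 17.4% lower. Without the members whose counting is uncertain, 53 of 65 rose and 2 fell, with a median of 0.43. The rise past 1.5-fold was limited to 12 of the 60.

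Complexes were assigned here and below by the start of the symbol. NDUFA4 is thus counted in complex I, although its RefSeq symbol COXFA4 places it with complex IV. By complex, 26 of the 37 nuclear genes of complex I rose and 1 fell, with a median log2 change of 0.43. The 7 nuclear core subunits, which carry the flavin and the iron-sulfur clusters, had 3 genes that rose and 1 that fell, with a median of 0.29. Complex II had 1 of 4 that rose, SDHA, whose counting is uncertain, and a median of 0.18. Complex III had 7 of 10 that rose and 1 that fell, with a median of 0.52. Complex IV had 10 of the 11 tested that rose and complex V 16 of 18, with medians of 0.42 in both, and neither had a gene that fell.

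COX4I1, a nuclear subunit of complex IV to which ATP binds, had the smallest p of the nuclear members. Its level was 199.0 and 184.9 CPM under isotype, 337.2 and 322.5 CPM under R and 292.4 and 298.0 CPM under OF. Both antibodies lay above isotype without overlap, and R lay above OF. The log2 change was 0.78 ± 0.08 under R (adjusted p = 1.3e-07) and 0.63 ± 0.08 under OF (adjusted p = 4.3e-06).

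ATP5IF1, the protein that inhibits the ATP synthase when it runs backwards, had 98.7 and 89.1 CPM under isotype, 166.4 and 153.4 CPM under R and 136.6 and 142.7 CPM under OF. The 3 conditions did not overlap, with isotype lowest and R highest. The log2 change was 0.77 ± 0.09 under R (adjusted p = 6.5e-07) and 0.58 ± 0.09 under OF (adjusted p = 3.6e-05). UQCRH, the hinge subunit of complex III that helps cytochrome c dock, went from 108.9 and 99.3 CPM to 164.1 and 182.3 CPM under R and 148.7 and 161.6 CPM under OF, with both antibodies above isotype. Its log2 change was 0.73 ± 0.09 under R and 0.58 ± 0.09 under OF. UQCRHL, a close copy of UQCRH whose reads may be shared with it, had 5.37 and 4.91 CPM under isotype and 10.3 and 10.4 CPM under R, the largest rise of the set, with a log2 change of 1.01 ± 0.16.

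The other nuclear members past 1.5-fold under R were small accessory subunits. In complex I these were NDUFA3 with a log2 change of 0.72 ± 0.11, NDUFS5 with 0.69 ± 0.09, NDUFB7 with 0.69 ± 0.10 and NDUFB11 with 0.63 ± 0.09. In complex III they were UQCR10 with 0.68 ± 0.09 and UQCRQ with 0.62 ± 0.10. The last were COX7A2L, which joins complexes III and IV into supercomplexes, with 0.62 ± 0.10, and ATP5MJ, a small membrane subunit of the ATP synthase, with 0.61 ± 0.10. NDUFS5 shows the pattern by library, with 87.0 and 84.5 CPM under isotype, 139.9 and 136.0 CPM under R and 121.6 and 121.7 CPM under OF, and no overlap between the 3 conditions.

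The nuclear members that fell were both iron-sulfur proteins. NDUFS1, the largest core subunit of complex I, had 140.8 and 161.9 CPM under isotype, 123.0 and 126.4 CPM under R and 116.6 and 127.1 CPM under OF. Its antibody libraries lay below both isotype libraries, with log2 changes of −0.28 ± 0.09 under R (adjusted p = 0.0246) and −0.31 ± 0.09 under OF (adjusted p = 0.0132). UQCRFS1, the Rieske protein of complex III, had 140.2 and 135.5 CPM under isotype, 110.4 and 114.9 CPM under R and 107.6 and 100.3 CPM under OF, again without overlap. Its log2 changes were −0.29 ± 0.09 and −0.40 ± 0.09 (adjusted p = 0.0154 and 0.00124).

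Several catalytic or core subunits were not called under R. They included ATP5F1B with a log2 change of 0.14 ± 0.07, the complex III core proteins UQCRC1 with 0.10 ± 0.09 and UQCRC2 with −0.01 ± 0.09, and NDUFV1 of the complex I core with 0.07 ± 0.09. SDHB and SDHC of complex II had 0.18 ± 0.09 each. ATP5F1A, the alpha subunit of the ATP synthase, was called, with 0.27 ± 0.07. The longest transcript had a median length of 1210 bases in the members that rose and 2235 bases in the other tested nuclear members. Across the 80 genes, Spearman's rho between that length and the log2 change was −0.26, a description over genes measured in the same 6 libraries. With a smooth trend on transcript length removed from each library, 51 nuclear members rose and 1 fell, with a median of 0.34, an alternative chosen after the values were seen.

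**Figure D2:**
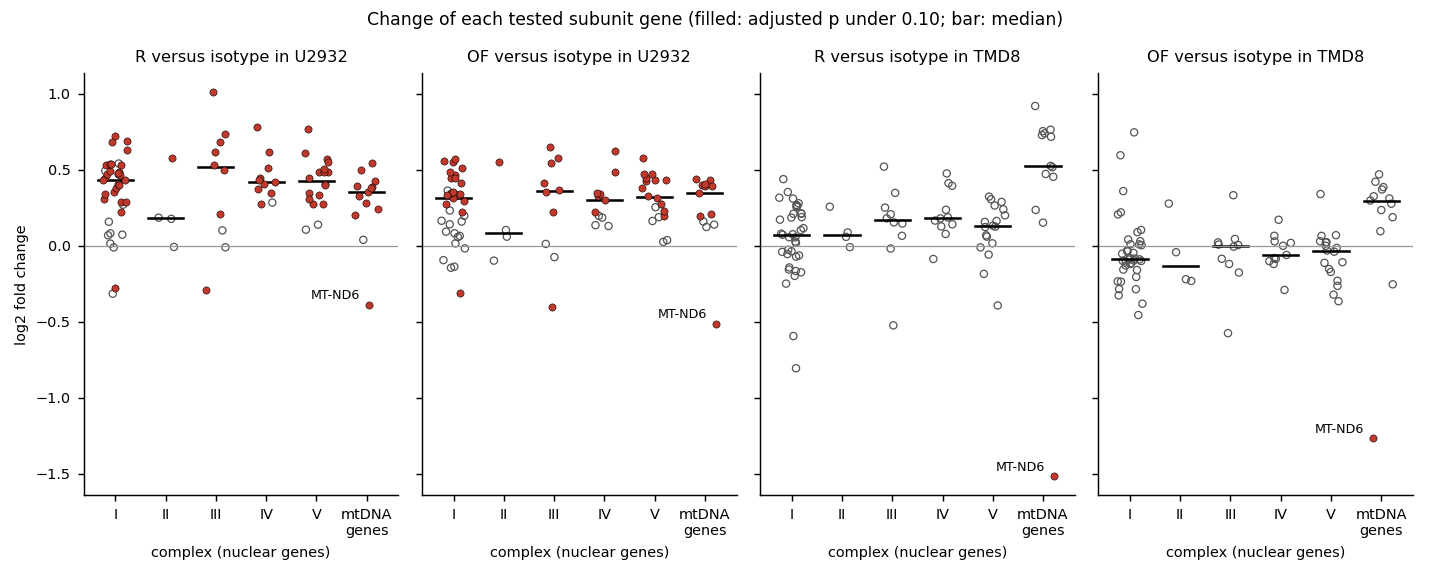
Log2 fold change (y axis) of each tested nuclear gene by complex and of the mitochondrial genes (x axis), for R and OF against isotype in each line; points are genes, filled at an adjusted p under 0.10, and bars are medians. In U2932 the medians of the nuclear genes of complexes I, III, IV and V under R lie between 0.42 and 0.52; in TMD8 MT-ND6 is the only filled point.

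Under OF fewer nuclear members of U2932 passed the test. OF raised 48 of the 80 nuclear members and lowered 2, with a median log2 change of 0.32 against 0.01 over all genes, where 18.7% were called higher and 17.8% lower. The 2 that fell were NDUFS1 and UQCRFS1, given above, and COX4I1 and UQCRHL (0.65 ± 0.16) were the only called members past 1.5-fold. R and OF were compared with the same isotype libraries, so their values stand side by side here and are not independent. By complex, 20 of 37 genes of complex I, 1 of 4 of complex II, 7 of 10 of complex III, 7 of 11 of complex IV and 13 of 18 of complex V rose.

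Some limits apply to these counts in U2932. When all 12 libraries shared 1 estimate of the spread, 3 nuclear members were called under R and 0 under OF, and 0 mitochondrial members under either, against 7.46% of all genes under R and 8.69% under OF. Without OF replicate 1, and likewise without OF replicate 2, 30 nuclear members were called under OF in place of 50.

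The direct comparison of R with OF in U2932, called at an adjusted p under 0.30, gave 0 of 80 nuclear and 0 of 13 mitochondrial members, against 0.00683% of all genes. DESeq2 also called 0. At an unadjusted p under 0.05 there were 7 nuclear members and 1 mitochondrial member, against 5.1% of all genes. The smallest p were those of UQCRQ, with a log2 difference of 0.26 ± 0.09, MT-ND4L with 0.24 ± 0.09 and UQCRHL with 0.36 ± 0.15, all higher under R and all with an adjusted p of 0.91. The median difference over the nuclear members was 0.12 and over all genes 0.00.

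Of the 13 mitochondrial members, R raised 11 and lowered 1 in U2932, and OF raised 9 and lowered 1. Over all genes, 16.8% were called higher and 17.4% lower under R, and 18.7% and 17.8% under OF. The gene that fell under both was MT-ND6, the light-strand message. It had 129.2 and 129.7 CPM under isotype, 100.2 and 97.7 CPM under R and 112.1 and 68.6 CPM under OF. All 4 antibody libraries were below both isotype libraries, with log2 changes of −0.39 ± 0.13 under R (adjusted p = 0.0275) and −0.51 ± 0.13 under OF (adjusted p = 0.00413). The call was lost in DESeq2 under both antibodies, under R without R replicate 2, and under OF without OF replicate 2, where the log2 change was −0.21. DESeq2 called 9 mitochondrial members under R and 6 under OF, all higher, against 27.5% and 29.3% of all genes called in either direction.

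Heavy-strand messages of all 4 complexes that have them rose under both antibodies. MT-CYB, the only mitochondrial subunit of complex III, had 3350 and 3273 CPM under isotype, 4055 and 4604 CPM under R and 4420 and 4258 CPM under OF. The antibody libraries did not overlap with isotype, and the log2 change was 0.39 ± 0.07 under both antibodies. MT-CO2, the complex IV subunit that takes electrons from cytochrome c, rose by 0.43 ± 0.08 under R and 0.40 ± 0.08 under OF on the log2 scale. MT-ATP6, a proton channel subunit of the ATP synthase with a nuclear copy, had 2559 and 2839 CPM under isotype, 3293 and 3817 CPM under R and 3525 and 3312 CPM under OF, and rose by 0.40 ± 0.08 and 0.35 ± 0.08.

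In complex I, MT-ND2 had log2 changes of 0.35 ± 0.08 under R and 0.41 ± 0.08 under OF, MT-ND1 0.33 ± 0.08 and 0.39 ± 0.08, and MT-ND3 0.55 ± 0.12 and 0.44 ± 0.12, all called. MT-ND4 and MT-ND4L, which share 1 bicistronic message, were called under R, with 0.20 ± 0.08 and 0.38 ± 0.09, and not under OF, with 0.16 ± 0.08 and 0.14 ± 0.09. MT-ND5 was called under neither. It had 3656 and 3563 CPM under isotype, 3793 and 3626 CPM under R and 4029 and 3809 CPM under OF, with log2 changes of 0.04 ± 0.07 and 0.12 ± 0.07. MT-CO1 and MT-CO3, core subunits of complex IV, rose by 0.28 ± 0.07 and 0.24 ± 0.09 under R and by 0.20 ± 0.07 and 0.21 ± 0.09 under OF. MT-ATP8 had 104.1 and 159.6 CPM under isotype and 134.1 and 238.6 CPM under R, which overlapped, and its log2 change was 0.50 ± 0.18. The overlap with MT-ATP6 printed above covers 22.2% of its length. R replicate 2 was the highest library for most of these messages, and without it 7 mitochondrial members were called in place of 12. MT-CO3, MT-ND3 and MT-ATP8 lost their calls under R in that fit, with log2 changes of 0.03, 0.21 and 0.03, and MT-CO3 also without isotype replicate 1. Under OF, MT-CO1 and MT-CO3 each lost the call in 3 of the 6 fits without 1 library, with log2 changes as low as 0.13 and 0.17.

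The mitochondrial ribosomal RNAs, which lie upstream on the same heavy strand, moved the other way in U2932. MT-RNR1, the small-subunit rRNA, had 1726 and 1709 CPM under isotype, 961.5 and 1170 CPM under R and 1056 and 902.4 CPM under OF. The antibody libraries were all below isotype, with log2 changes of −0.69 ± 0.09 under R (adjusted p = 1.9e-06) and −0.81 ± 0.09 under OF (adjusted p = 2.3e-07). MT-RNR2, the large-subunit rRNA, fell by 0.29 ± 0.08 and 0.38 ± 0.08 on the log2 scale. Counts on the rRNAs per count on the other mitochondrial messages were 0.304 and 0.306 under isotype and 0.185 to 0.205 under the antibodies. How rRNA was removed or poly(A) RNA selected is not given in the sources used here, and the part of that step in the rRNA counts was not tested.

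**Figure D3:**
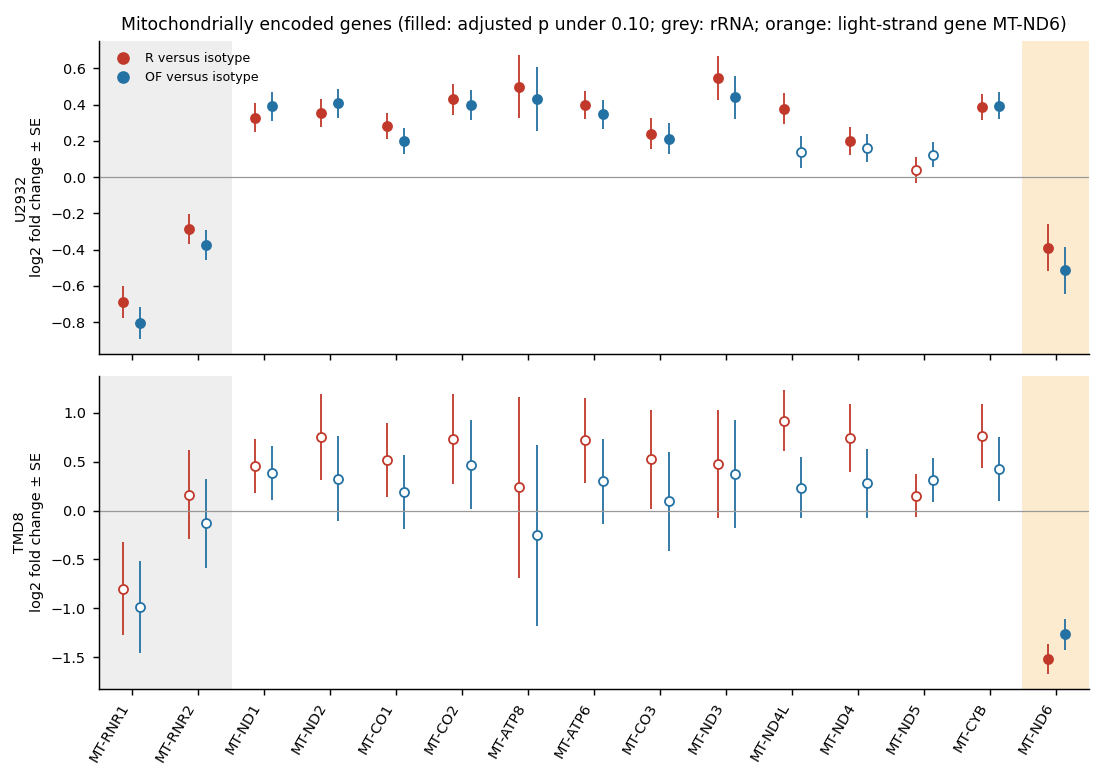
Log2 fold change ± SE (y axis) of the 2 rRNAs (grey band) and the 13 messages (MT-ND6 in the orange band) of mitochondrial DNA, in U2932 (top) and TMD8 (bottom), for R (red) and OF (blue) against isotype; filled points were called at an adjusted p under 0.10. In U2932 the rRNAs and MT-ND6 lie below 0 and the other messages above it; in TMD8 MT-ND6 is at −1.52 under R and −1.27 under OF.

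Other genes of the same pathways had medians near that of all genes in U2932. The shares of all genes to set beside these lists were 16.8% higher and 17.4% lower under R. Under OF they were 18.7% higher and 17.8% lower. Of 45 assembly factors tested, 12 rose and 4 fell under R, with a median log2 change of 0.04, and 8 rose and 5 fell under OF. UQCC3, an assembly factor of complex III, rose by 0.67 ± 0.11 under R, and COX10, which makes the heme of complex IV, fell by 0.52 ± 0.11. Of 32 genes that copy, transcribe or process mitochondrial DNA and RNA, 6 rose and 8 fell under R and 8 rose and 11 fell under OF. GRSF1, which binds mitochondrial RNA in the granules where it is processed and is known to bind the MT-ND6 transcript, rose by 0.76 ± 0.09 under R and 0.69 ± 0.09 under OF on the log2 scale. Of 77 proteins of the mitochondrial ribosome, 18 rose and 7 fell under R and 12 rose and 15 fell under OF.

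For the lists in this paragraph the shares of all genes were again 16.8% higher and 17.4% lower under R and 18.7% and 17.8% under OF. Of 7 tested regulators of mitochondrial biogenesis, 0 rose and 4 fell under R. The 4 were GABPB1 with a log2 change of −0.46 ± 0.11, NRF1 with −0.32 ± 0.11, YY1 with −0.23 ± 0.09 and PPRC1 with −0.26 ± 0.11. Under OF, GABPB1 fell, with −0.55 ± 0.11, and PPARGC1B rose, with 0.41 ± 0.12. Of 12 carriers of the inner membrane, 1 rose and 3 fell under R and 2 rose and 2 fell under OF. The nuclear-retained RNAs MALAT1 and NEAT1 were not called, with −0.04 ± 0.14 and 0.10 ± 0.09 under R.

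Cytosolic ribosomal proteins, which are also short and abundant messages, moved with the subunit genes. Of 78 tested, 72 rose and 0 fell under R, with a median log2 change of 0.54, and 71 rose and 0 fell under OF, with a median of 0.43. Of all genes, 16.8% rose and 17.4% fell under R, and 18.7% rose and 17.8% fell under OF. Their share of all counts was 5.20% and 4.86% in the isotype libraries and 6.64% to 7.23% in the antibody libraries of U2932. Their part in the change of the subunit genes was not tested.

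In TMD8, MT-ND6 was the only member called. It had 472.1 and 471.5 CPM under isotype, 163.5 and 164.2 CPM under R and 187.0 and 203.7 CPM under OF. Both isotype libraries were above all 4 antibody libraries, including the 2 libraries that stood apart. The log2 change was −1.52 ± 0.16 under R (adjusted p = 0.0697) and −1.27 ± 0.16 under OF (adjusted p = 0.0851). Over all genes, 0.647% were called under R and 0.815% under OF, in either direction. The call was lost without either R library under R, and under OF without any 1 of the other TMD8 libraries except isotype replicate 2, although over all fits without 1 library the log2 change ranged from −1.53 to −1.50 under R and from −1.32 to −1.21 under OF. As a share of the mitochondrial messages, MT-ND6 was 1.28% and 1.85% under isotype, 0.335% and 0.376% under R and 0.394% and 0.773% under OF. Whether counting used the strand of the read is not given in the sources used here, and without strand, reads of MT-ND6 and of RNA from the opposite strand cannot be told apart.

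The other 12 mitochondrial messages all had log2 changes above 0 under R in TMD8, from 0.15 to 0.92, and 0 were called by edgeR at 6 libraries, with 1 at an unadjusted p under 0.05, against 15.9% of all genes. Not all directions held: without isotype replicate 2 MT-ND3 was at −0.04 and MT-ATP8 at −0.50, and without isotype replicate 1 MT-ND5 was at −0.02. MT-CO2 ranged from 0.32 to 1.31 over the fits without 1 library. MT-CYB shows the spread, with 2018 and 1484 CPM under isotype, 3061 and 2860 CPM under R and 2964 and 1705 CPM under OF. The R libraries were above isotype, while OF replicate 2 lay between the isotype libraries. Its log2 change was 0.76 ± 0.33 under R, and 0.54 ± 0.11 without the 2 libraries that stood apart. With the replicate number as a block, that is, with each culture compared with itself, 6 heavy-strand messages were called under R, against 17.7% of all genes. They were MT-CO2 with 0.83 ± 0.24, MT-CYB with 0.79 ± 0.21, MT-ND2 with 0.82 ± 0.24, MT-ND4 with 0.76 ± 0.23, MT-ATP6 with 0.80 ± 0.24 and MT-ND4L with 0.94 ± 0.19. Under OF the block called MT-ND6 alone of the mitochondrial members, against 14.3% of all genes.

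The nuclear members of TMD8 showed no call in either comparison. The median log2 change of the 80 was 0.13 under R, with 0 called by edgeR, 0 at an unadjusted p under 0.05 and 0 by DESeq2. Over all genes, 15.9% were at an unadjusted p under 0.05 and DESeq2 called 5.07%. Under OF the median was −0.07, with 0 called by edgeR, 1 at an unadjusted p under 0.05 and 0 by DESeq2, against 14.1% and 4.18% of all genes for the last 2. With the block, UQCRH was called under R with 0.60 ± 0.20, and under OF UQCRFS1 was called lower with −0.56 ± 0.17 and NDUFA11, whose counting is uncertain, higher with 0.75 ± 0.15. R and OF did not differ by a call either, with 0 of 93 members against 0% of all genes by edgeR, 1 nuclear member at an unadjusted p under 0.05, against 4.09% of all genes, and 0 by DESeq2.

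These values depended on which TMD8 libraries were used. The libraries that stood apart were also those with the lowest nuclear shares, so fits without them are not a separate test of the nuclear members. Leaving out isotype replicate 2 moved the nuclear median under R to −0.22, and leaving out isotype replicate 1 moved it to 0.56. With only the 4 TMD8 libraries that did not stand apart, in which isotype and OF have 1 library each and are assumed to vary like R, 2 nuclear members were called higher and 26 lower under R, with a median of −0.22, against 30.3% of all genes called. Under OF 1 was called higher and 8 lower, against 23.4%. In the same fit 9 mitochondrial members were called higher and 2 lower under R, and 10 higher and 1 lower under OF. MT-ND6 was at −1.54 ± 0.11 under R and −1.35 ± 0.14 under OF there, and UQCRFS1 at −0.83 ± 0.12 and −0.66 ± 0.14. UQCRFS1 had 396.4 and 251.6 CPM under isotype, 225.1 and 223.8 CPM under R and 252.7 and 180.7 CPM under OF. Its OF libraries overlapped with isotype and its R libraries lay below both.

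In TMD8, MT-RNR1 had 3622 and 1677 CPM under isotype, 1623 and 1417 CPM under R and 1809 and 858.1 CPM under OF. The replicates of isotype differed by more than the conditions did, and its log2 changes of −0.80 ± 0.47 under R and −0.99 ± 0.47 under OF were not called. Per count on the other mitochondrial messages, the rRNAs were at 0.660 and 0.514 under isotype, 0.421 and 0.408 under R and 0.438 and 0.411 under OF, with no overlap. GRSF1 had log2 changes of 0.86 ± 0.18 under R and 0.89 ± 0.18 under OF, which were not called.

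**Figure D4:**
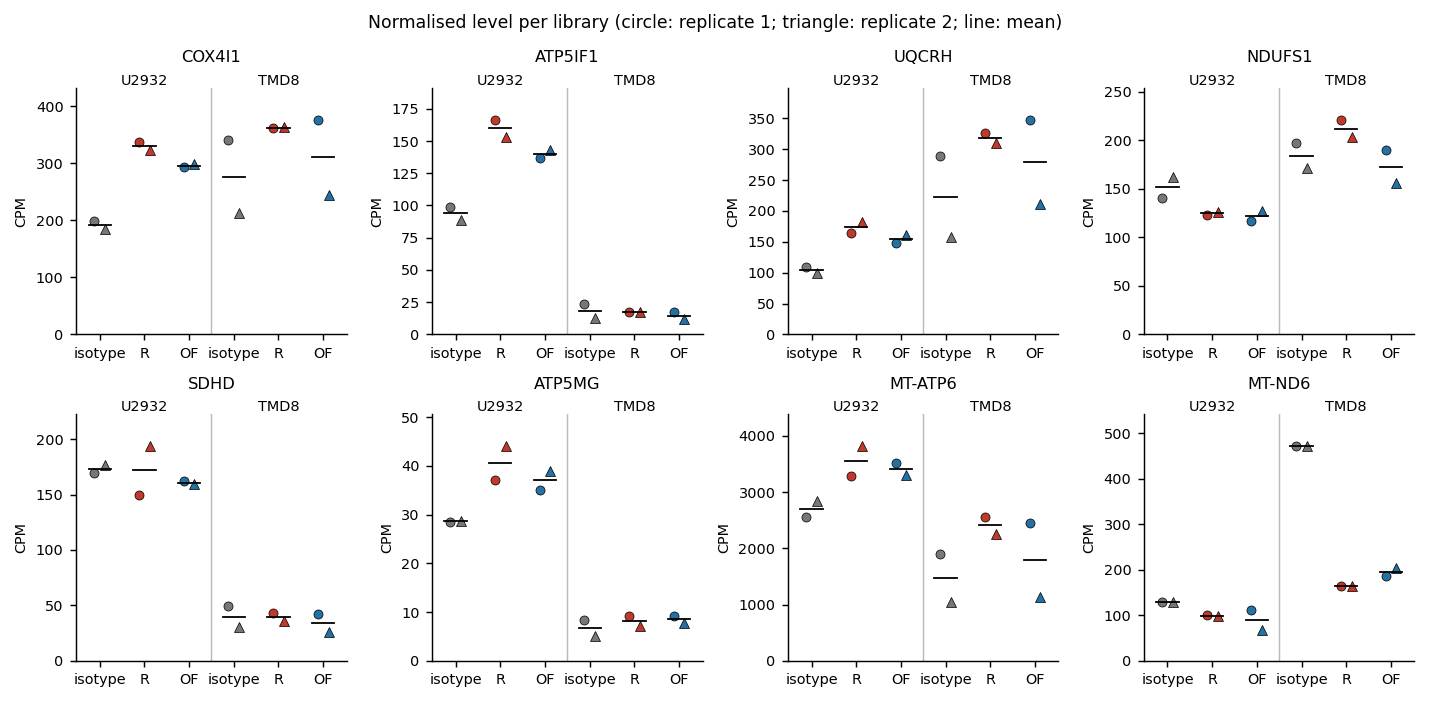
Normalised level (CPM, y axis) in each library (circle, replicate 1; triangle, replicate 2; line, mean) of 6 nuclear members and of MT-ATP6 and MT-ND6, by antibody and line. COX4I1, ATP5IF1 and UQCRH rise under both antibodies in U2932, NDUFS1 falls there, SDHD and ATP5MG differ mainly between the lines, and MT-ND6 is at 472.1 and 471.5 CPM in the TMD8 isotype libraries against 163.5 to 203.7 CPM under the antibodies.

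Whether the 2 lines responded differently was tested as an interaction over all 12 libraries. No member was called for R or for OF. Over all genes, 0.321% were called for R and 0.105% for OF. At an unadjusted p under 0.05 there were 6 nuclear members and MT-ND6 for R, and 3 nuclear members and MT-ND6 for OF, against 11.9% and 8.46% of all genes, so the members were below the background at this limit. DESeq2 called 2 nuclear members and MT-ND6 for R, against 3.37% of all genes, a share near that of the members, and 0 members for OF, against 1.58%. The smallest p for R was that of MT-ND6, whose log2 change was lower by 1.14 ± 0.26 in TMD8 than in U2932 (adjusted p = 0.15), followed by NDUFS7, a core subunit of complex I, with −0.65 ± 0.19 (adjusted p = 0.23), and ATP5F1D, the delta subunit of the ATP synthase, with −0.75 ± 0.23 (adjusted p = 0.24). For OF they were MT-ND6 with −0.75 ± 0.26, ATP5IF1 with −0.89 ± 0.35 and NDUFC2, whose counting is uncertain, with −0.80 ± 0.34. The counting of NDUFS7 is uncertain too if strand was not used.

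With the replicate block, 4 nuclear members and MT-ND6 were called in the interaction for R, against 6.04% of all genes, a share close to that of the members. With GC correction added to the block, MT-ND6 was the only member called. Without the 2 TMD8 libraries that stood apart, 1 nuclear member was called higher and 58 lower for R, against 16% of all genes, and 0 higher and 23 lower for OF, against 5.28%. The median difference of the nuclear members for R was −0.30 with all libraries, −0.62 without those 2, and 0.14 without TMD8 isotype replicate 1. In the fit without them, ATP5IF1 was at −1.22 ± 0.17, NDUFS5 at −0.97 ± 0.15 and COX4I1 at −0.69 ± 0.13. In the 4 remaining TMD8 libraries, both R values of ATP5IF1 and NDUFS5 were below that of isotype, and both R values of COX4I1 were above it. The libraries left out had the lowest nuclear shares in TMD8, so the nuclear values of this fit follow in part from that choice.

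Between the lines under isotype, several single members differed widely, while the counts of calls were mostly near those of all genes. Of the 80 nuclear members, 8 were higher in U2932 and 28 lower than in TMD8, with a median log2 difference of −0.28, while over all genes 33.2% were higher and 33.7% lower. The share of nuclear members that were lower was thus close to that of all genes, and the share that were higher was smaller. The median turned to 0.14 without TMD8 isotype replicate 1 and was −0.52 without TMD8 isotype replicate 2. Of the 13 mitochondrial members, 5 were higher in U2932 and 1, MT-ND6, was lower, and the share that were higher was near that of all genes. Without TMD8 isotype replicate 1 there were 11 higher and 1 lower, and without the 2 libraries that stood apart 6 higher and 3 lower, with the median falling from 0.69 to 0.18. Scaled to total counts alone, which moved the median of all genes by 0.129 on the log2 scale, the nuclear split was 11 higher and 23 lower. Without the 2 libraries that stood apart it was 8 higher and 59 lower, against 70.1% of all genes called.

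The nuclear members with the largest higher level in U2932 were a short list. ATP5IF1, the ATP synthase inhibitor, had 98.7 and 89.1 CPM in U2932 and 23.7 and 12.6 CPM in TMD8, a log2 difference of 2.38 ± 0.25 (adjusted p = 9.1e-06). SDHD, a membrane anchor of complex II, had 169.0 and 176.4 CPM against 49.3 and 30.5 CPM, a difference of 2.12 ± 0.25. ATP5MG, a subunit of the membrane part of the ATP synthase, had 28.5 and 28.7 CPM against 8.45 and 5.11 CPM, a difference of 2.10 ± 0.22. In each case the lines did not overlap, and SDHD and ATP5MG are among the members whose counting is uncertain. NDUFS5 and NDUFB5, accessory subunits of complex I, followed with 1.00 ± 0.33 and 0.95 ± 0.21. Without the 2 libraries that stood apart the differences were 1.98 ± 0.14 for ATP5IF1, 1.81 ± 0.14 for SDHD, 1.76 ± 0.18 for ATP5MG, 0.53 ± 0.12 for NDUFS5 and 0.65 ± 0.12 for NDUFB5, all called.

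The members lowest in U2932 relative to TMD8 were NDUFA13, with a log2 difference of −1.84 ± 0.55, NDUFA3 with −1.59 ± 0.20, ATP5F1D with −1.49 ± 0.17, NDUFB8 with −1.46 ± 0.31 and UQCRHL with −1.41 ± 0.33. NDUFA13 and NDUFB8 had at most 4.32 and 3.02 CPM in any library and their counting is uncertain. ATP5F1D had 82.5 and 62.9 CPM in U2932 and 223.9 and 183.5 CPM in TMD8, without overlap. In the fit without the 2 libraries that stood apart, NDUFA13 was at −0.97 ± 0.49, and the other 4 were between −1.92 for UQCRHL and −1.62 for ATP5F1D. Of the complex I core subunits, 5 of 7 were lower in U2932 and 0 higher, against 33.7% and 33.2% of all genes. NDUFV1 was among those that were lower, with −0.91 ± 0.11.

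Of the mitochondrial members, MT-ND5 had the largest excess in U2932, with 3656 and 3563 CPM against 1320 and 1752 CPM, a log2 difference of 1.23 ± 0.16 (adjusted p = 4.5e-05). MT-ND4L followed with 0.93 ± 0.24, MT-CYB with 0.92 ± 0.24, MT-ATP6 with 0.88 ± 0.33 and MT-ND4 with 0.72 ± 0.25. MT-ND6 went the other way, with 129.2 and 129.7 CPM against 472.1 and 471.5 CPM, a difference of −1.87 ± 0.19 (adjusted p = 5.9e-06). MT-ND5 and MT-ND6 thus lay at opposite ends of the mitochondrial set, and neither pair of libraries overlapped. Without the 2 libraries that stood apart MT-ND5 was at 1.45 ± 0.10 and MT-ND6 at −1.87 ± 0.14, while MT-ATP6 was at 0.51 ± 0.10, and MT-ND1 and MT-ATP8 were called lower, with −0.46 ± 0.10 and −0.67 ± 0.20. Without a filter on low counts 10 mitochondrial members were higher and 2 lower, against 37.5% of all genes called in either direction.

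For the other lists between the lines under isotype, the shares of all genes to set beside them were again 33.2% higher and 33.7% lower in U2932. Of 78 cytosolic ribosomal proteins, 2 were higher and 62 lower in U2932. Of 32 genes of mitochondrial DNA and RNA, 3 were higher and 18 lower, among them FASTKD1, which regulates the stability of single mitochondrial messages, with −2.71 ± 0.14, and TWNK, the mitochondrial DNA helicase, with −1.41 ± 0.15. Assembly factors were split, with 10 higher and 11 lower of 46, and the mitochondrial ribosome had 16 higher and 18 lower of 77. Both lists were below the shares of all genes in both directions. Of 7 regulators, 0 were higher and 2 lower, a share that was not above that of all genes. The 2 were PPRC1 with −1.69 ± 0.30 and ESRRA with −0.47 ± 0.14.

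**Figure D5:**
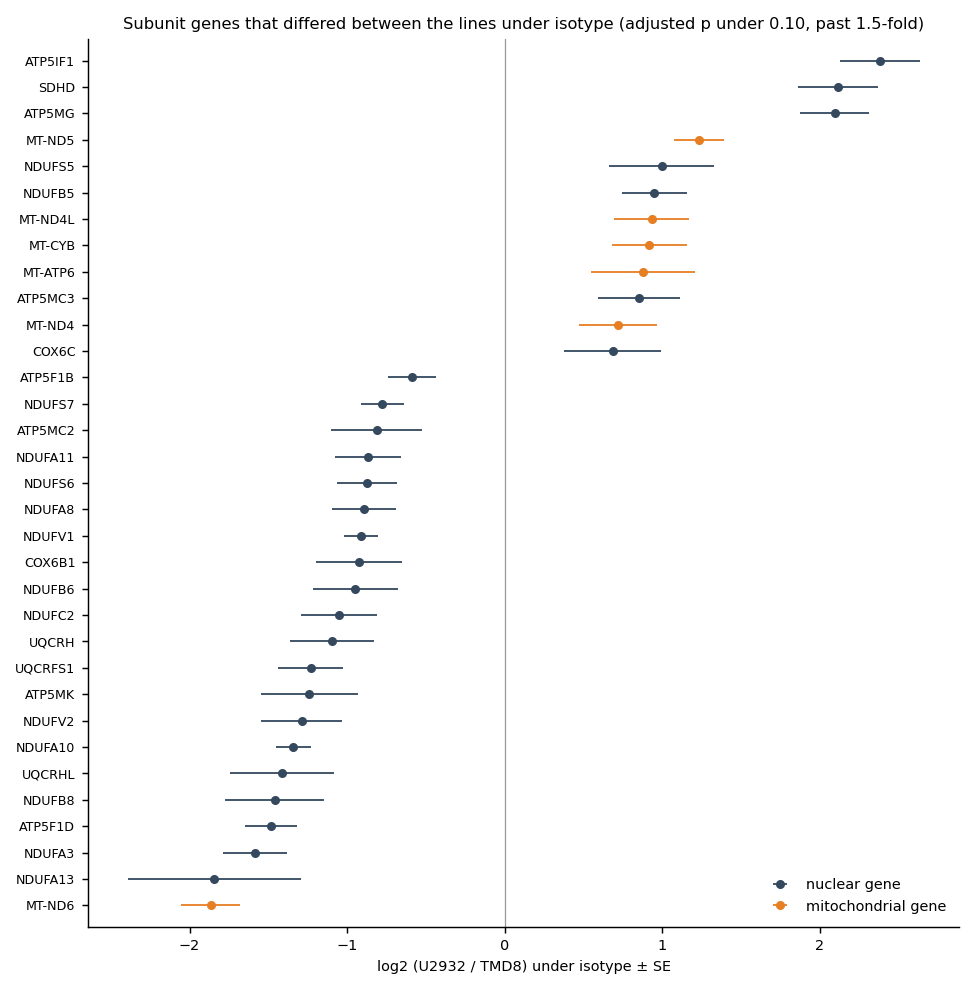
Log2 difference ± SE (x axis) between U2932 and TMD8 under isotype for the 33 members called at an adjusted p under 0.10 and past 1.5-fold (y axis, ordered by the difference; blue, nuclear; orange, mitochondrial). ATP5IF1, SDHD and ATP5MG lie above 2, and MT-ND6 at −1.87 lies lowest.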

How the data were processed

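RNA-seq was analysed from 12 libraries. The authors deposited raw counts of reads per Ensembl gene, not normalised. Per the labels' processing notes, Trim Galore 0.6.0, cutadapt, FastQC, STAR 2.7.0e, DESeq2 1.26.0 and GRCh38 were used; the annotation release and the strand setting are not given in the sources used here. Each column was matched to 1 library by its label. Symbols, positions and lengths came from GENCODE 29 on GRCh38 and current symbols, and 8 members with few counts were not tested.

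Counts were analysed with edgeR 4.0.16 (R 4.3.3): TMM, filterByExpr (at least 10 counts), a quasi-likelihood fit with 1 mean per condition on the 6 libraries of a line, or on all 12 for contrasts between lines, and Benjamini-Hochberg adjustment over all genes tested. The limit on the adjusted p was 0.10, and in U2932 it was 0.30 when R was compared with OF, as in the study's text. CPM are on 1 TMM scale over the 12 libraries. TPM used merged exon length. Steps were tested on simulated data. Depth was 15440226 to 27110612 counts, and intervals from 2 libraries per condition are wide.

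The labels state that each line was split into 2 cultures, and the replicate number was taken to name the culture. Deviations of same-numbered libraries correlated at −0.04 to 0.10 in U2932 and 0.18 to 0.58 in TMD8. Alternatives were DESeq2 1.42.0, other scalings, filters and limits, a replicate block, GC and length corrections (lowess, span 0.3), and fits without each library.

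The members, gene lists and comparisons were chosen with earlier results of these data known. Genes are named with values if they are mitochondrial members, have the smallest p or pass 1.5-fold in a comparison, differ most between lines, or have the smallest p of a list. In addition, NDUFS1, UQCRFS1, UQCRC1, UQCRC2, ATP5F1A, ATP5F1B, NDUFV1, SDHA, SDHB, SDHC and, in TMD8, GRSF1 were described after their values were seen. Figures were drawn with matplotlib 3.10.9.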

Additional observations from a re-analysis of the deposited data

Results flagged for a closer look

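The difference between the lines in the response to R passed the threshold for 5 of the 93 members once each culture was compared with itself (edgeR with the replicate block), a share close to the 6.04% of all genes called in that fit. Without the block the same fit of 12 libraries called 0 members, and DESeq2 called 3. With GC correction added to the block, MT-ND6 was the only one called. Compared with U2932, the log2 change under R in TMD8 was higher by 0.48 ± 0.14 for NDUFS1, and lower for the other 4 members, with −0.76 ± 0.19 for ATP5F1D, −0.66 ± 0.16 for NDUFS7, −0.77 ± 0.23 for ATP5IF1 and −1.14 ± 0.21 for MT-ND6.

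By library, the NDUFS1 level under R went from 140.8 and 161.9 to 123.0 and 126.4 CPM in U2932 and from 197.2 and 171.1 to 221.0 and 203.1 CPM in TMD8. NDUFS7, whose counting is uncertain if strand was not used, went from 102.4 and 84.8 to 130.5 and 116.3 CPM in U2932. In TMD8 it went from 168.3 and 152.5 to 124.5 and 144.1 CPM. ATP5F1D went from 82.5 and 62.9 to 94.4 and 91.0 CPM in U2932 and from 223.9 and 183.5 to 141.6 and 167.2 CPM in TMD8. For these 3 genes neither line's R and isotype libraries overlapped, and the direction differed between the lines. They were picked by the interaction on these same libraries, so the pattern follows in part from the choice. The share of all genes with this pattern was not counted. ATP5IF1 was at 23.7 and 12.6 CPM under isotype and 17.0 and 17.5 CPM under R in TMD8, which overlapped. A fit without the block also left out the 2 TMD8 libraries that stood apart, isotype replicate 2 and OF replicate 2. There the differences were 0.39 ± 0.15 for NDUFS1, −0.88 ± 0.17 for ATP5F1D, −0.72 ± 0.16 for NDUFS7, −1.22 ± 0.17 for ATP5IF1 and −1.14 ± 0.19 for MT-ND6. The 5 members were picked on libraries that this fit shares, so it is not separate support. Of the 80 nuclear members, 76 were below 0 in it, with a median of −0.62. All of them rest on isotype replicate 1, the only TMD8 isotype library in that fit. The 2 libraries left out also had the lowest shares of counts on the nuclear members in TMD8, so this median follows in part from the choice of libraries.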

How the results depend on the processing

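The counts of members called stayed within 1.5 times in 356 of 420 alternatives, and the median changes within 1 SD in 384 of 428. Single genes kept their call, and where called their direction, in 3428 of 3677. These tallies do not measure stability, because the limits were loose. The SD was that of 2 replicate values, and 0 calls in both fits counted as kept. In fits without 1 library, the nuclear median under R in TMD8 ran from −0.22 to 0.56, and all 6 were within the limit. Between the lines it ran from −0.52 to 0.14, and all 12 were within the limit. Where a value changed, the cause was not tested. The share of all genes called changed with the setting too, and the counts below are to be read beside it. Under R in TMD8 it was 0.647% in the main fit, 17.7% with the block and 16.8% with GC correction added. It was 12.3% with all 12 libraries, 8.8% with GC and length correction, 5.07% in DESeq2 and 4.05% without a filter. Under OF these shares were 0.815%, 14.3%, 15.9%, 9.93%, 8.55%, 4.18% and 3.37%, in the same order. The replicate block, for the cultures that pair the samples, called under R in TMD8 1 nuclear and 7 mitochondrial members, under OF 2 nuclear, and in the interaction for R 4 nuclear and 1 mitochondrial; it moved no other count of calls past 1.5 times. With GC correction added the block gave 3 and 7 under R, 3 nuclear under OF, and 1 mitochondrial member in each interaction. Of all genes, 3.04% and 2.86% were called in the interactions for R and OF. In U2932, a limit of 1.5-fold left 12 nuclear and 0 mitochondrial members under R and 2 and 0 under OF. Of all genes it left 10.2% and 11.1%. All 12 libraries in 1 fit left 3 and 0 under R and 0 and 0 under OF, against 7.46% and 8.69%. DESeq2 called 6 mitochondrial members under OF, against 29.3% of all genes. In TMD8, an adjusted p under 0.05 left 0 mitochondrial members under R and OF; DESeq2 called 2 and no filter 7 under R; no filter called 1 nuclear under OF; GC and length correction called 1 nuclear under R and 1 under OF; all 12 libraries called 1 nuclear and 3 mitochondrial under R and 1 nuclear under OF; only the libraries compared left 0 mitochondrial under OF. With only the 4 TMD8 libraries that did not stand apart, R called 28 and 11, OF 9 and 11, and R with OF 1 and 1; the changes of MT-ATP8 under R (−0.51) and of MT-ND3 between R and OF (−0.44) turned direction, as did the difference of MT-ATP8 between the lines (−0.67) in the 10 libraries. There the lines differed in 67 nuclear members, and the interactions called 59 and 5 for R and 23 and 1 for OF. In the interaction for R, DESeq2 called 2 nuclear and 1 mitochondrial member, and no filter and GC and length correction 1 mitochondrial member each. Of all genes these called 3.37%, 0.843% and 1.59%. For OF, no filter called 1 nuclear, against 0.544% of all genes. Between the lines no filter called 12 mitochondrial members, against 37.5% of all genes. Without 1 library at a time, counts ranged in U2932 from 7 to 12 mitochondrial members under R and 30 to 52 nuclear under OF, in TMD8 from 0 to 1 mitochondrial under R and under OF, between the lines from 4 to 12 mitochondrial, and in the interactions from 0 to 3 nuclear and 0 to 1 mitochondrial for R and 0 to 4 nuclear for OF. With 2 libraries per condition, depth limits chiefly the members of few counts (NDUFA7, NDUFA13 and NDUFB8).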
